A study of Homo sapiens with 12 samples.

Results

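The inflammatory cytokine and chemokine genes described here, taken by gene name from the deposited gene tables, were the cytokines IL11, LIF and IL6 and the chemokines CXCL8, CXCL1, CXCL2, CXCL3 and CCL2. These 8 genes were among the 36963 genes listed. CXCL1 was listed at 0 in all 12 libraries, and the other 7 had counts and passed the filter on low counts, which kept 14804 genes in all. The libraries came from a YTHDF2 RIP-seq experiment, in which RNA bound to YTHDF2 was recovered from cell lysate by immunoprecipitation (IP) and sequenced beside RNA of the unselected lysate (input). YTHDF2 is a reader protein of m6A, a methyl mark on mRNA, and brings the mRNAs it binds to the CCR4-NOT deadenylase. The cells were U251-MG, a human astrocytoma line that the labels call astrocytes. All cells were held in 2% serum, either with nothing added (control) or with 100 µM manganese chloride, a salt of a metal that harms neurons and glia at high exposure. Input and IP were each sequenced from control and manganese-treated cells, with 3 libraries in each of the 4 groups. No control-antibody IP and no length of exposure appear in the labels. Nothing says that libraries of a group came from separate cultures, so a p-value here speaks only of library-to-library spread, which may be technical.

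IL6, IL11 and LIF signal through gp130, a receptor chain they share, which activates JAK kinases and the transcription factor STAT3. CXCL8, CXCL1, CXCL2 and CXCL3 draw neutrophils through the receptor CXCR2, and CCL2 draws monocytes through CCR2. In astrocytes these genes are known as targets of NF-kB and AP-1 during inflammation, and many of their mRNAs are short-lived because AU-rich elements mark them for deadenylation and decay.

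Gene counts ran from 16683984 to 28425552 per library. In control IP 3, 56.88% of fragments aligned, against 83.7% to 87.12% in the other 11 libraries, and calls that turn on this library are given with and without it. PCGF6 alone took 34.3% to 41.8% of the counts of each library. Levels below are CPM, read counts scaled to library size with TMM factors, except where TPM, which allows for transcript length, is named. Scaling by total counts in place of TMM moved the median log2 change of all tested genes with manganese from -0.04 to -0.49 in the input, and changes below are therefore relative to the bulk of genes. Of the astrocyte and glioma markers, VIM, CD44 and GFAP were abundant in control input (2180, 841 and 1730 CPM), while AQP4 was at 0 in all 12 libraries.

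IL11 and CXCL8 had the largest changes with manganese among the members. Promoters are shown for members that passed the test with manganese in the input and have an entry in the promoter table, which left IL11 and CXCL8. Both hold an AP-1 motif near the start site. LIF and CCL2 have no entry in the promoter table. The sequences are the 250 bases upstream of the gene start in RefSeq (GRCh38.p14), written 5′ to 3′ on the gene's strand with the AP-1 match in capitals. The IL11 stretch is chr19:55370464-55370713 on the minus strand and the CXCL8 stretch is chr4:73740319-73740568 on the plus strand.
IL11: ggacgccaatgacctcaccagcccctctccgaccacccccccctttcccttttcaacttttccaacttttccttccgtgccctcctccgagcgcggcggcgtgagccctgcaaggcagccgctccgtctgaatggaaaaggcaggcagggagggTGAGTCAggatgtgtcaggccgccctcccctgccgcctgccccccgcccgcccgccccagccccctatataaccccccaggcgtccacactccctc
CXCL8: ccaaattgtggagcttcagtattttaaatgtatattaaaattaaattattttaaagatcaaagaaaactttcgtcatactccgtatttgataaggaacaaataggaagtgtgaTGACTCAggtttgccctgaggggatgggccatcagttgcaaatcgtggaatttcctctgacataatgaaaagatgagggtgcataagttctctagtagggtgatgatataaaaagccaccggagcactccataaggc

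The AP-1 motif searched was TGANTCA on both strands. It lay at bases -96 to -90 from the start of IL11 and at -137 to -131 from that of CXCL8, and 6.6% of the 27305 promoters in the table held it in the same window. A 10-letter NF-kB consensus, held by 5.05% of the promoters, matched IL6 once (GGGATTTTCC, -73 to -64) and matched CXCL1, CXCL2 and CXCL3 at a shared GGGAATTTCC that begins at -79, -78 and -79. The second, overlapping match in each of those 3 is the same site read 1 base on. The consensus was GGGRNWYYCC, with R for A or G, W for A or T, Y for C or T and N for any base. No match to these consensus letters lay in the IL11 or CXCL8 window, which says nothing of the factor itself. The CXCL8 window holds tggaatttcc, which departs from the consensus in its first letter only. These are matches of letters and were not set against binding data. CXCL8, CXCL1, CXCL3 and CXCL2 lie in that order within 359 kb of chromosome 4.

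With manganese, IL11, LIF and CXCL8 mRNAs rose in the input. Of the 7 members tested, 3 passed the threshold of an adjusted p of 0.05, all of them higher, beside 15% of all tested genes passing in either direction, 11.3% higher and 3.63% lower. That balance depends on scaling, with 1678 genes higher and 537 lower by TMM but 1121 higher and 2621 lower by total counts, under which IL11, LIF and CXCL8 also passed as higher and CCL2, which did not pass by TMM, passed as lower (-1.25 log2, edgeR adjusted p = 0.00434). Groups did not overlap for 6 of the 7, beside 44.8% of all genes. By total counts, CXCL3 lay above the low-count cutoff of 0.42 CPM in 2 control input, 3 manganese input, 1 control IP and 2 manganese IP libraries. For CXCL2 these numbers were 2, 3, 2 and 3. The filter counts libraries of any group, so neither gene was kept through manganese input alone.

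**Figure D1:**
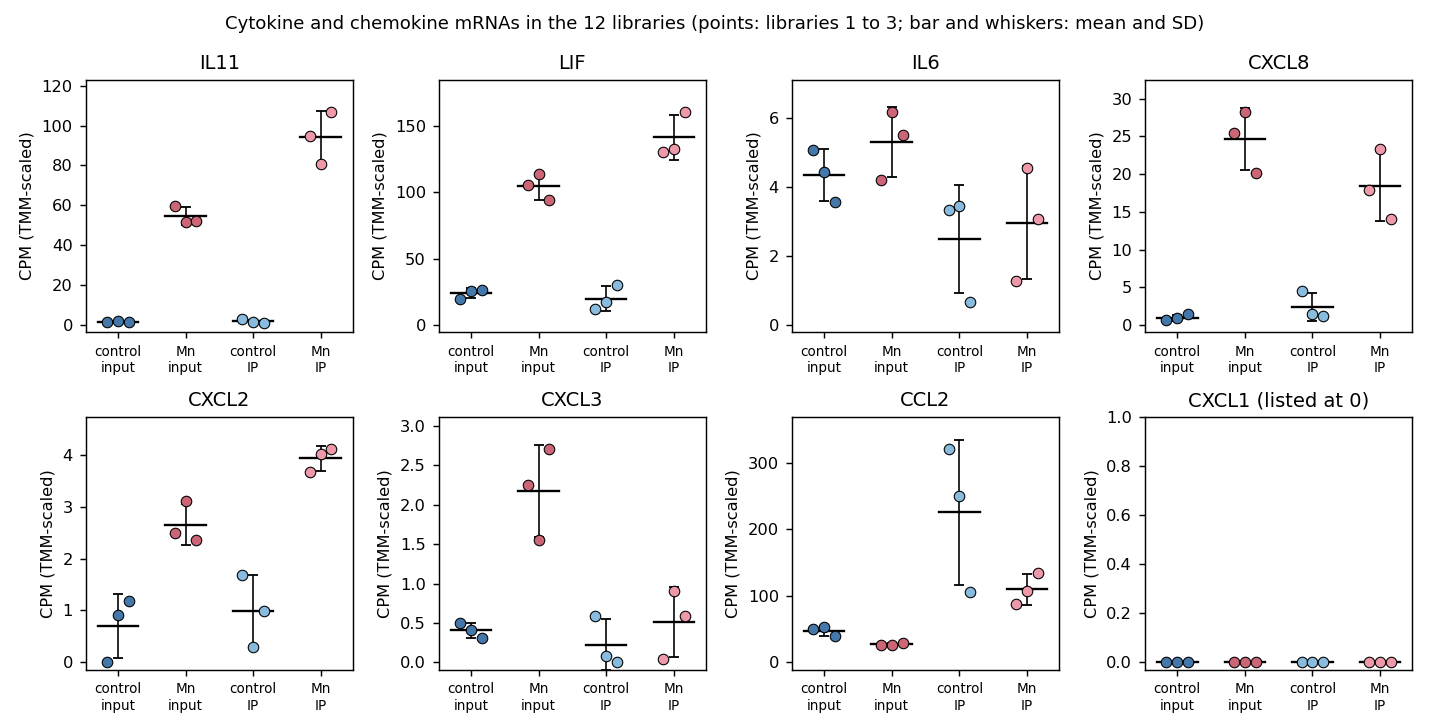
CPM of each member in the 12 libraries, with the mean and SD of 3 libraries per group; the y axes differ between panels and start near 0. IL11, LIF and CXCL8 lie higher in every manganese library than in every control library of the same fraction, CCL2 lies higher in the IP than in the input, and CXCL1 is listed at 0 throughout.

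IL11, a gp130 cytokine known for its part in fibrosis and haematopoiesis, stood at 1.38, 1.82 and 1.72 CPM in control input 1 to 3 and at 59.8, 51.5 and 52.3 CPM in manganese input 1 to 3. Every manganese library was far above every control library. The difference was 5.05 ± 0.29 on the log2 scale (SE), a 33.0-fold rise with an adjusted p of 2.76e-07 (edgeR quasi-likelihood F test, Benjamini-Hochberg adjustment over all tested genes). Ranked by the size of the rise, IL11 was number 67 of the 14804 genes tested, and ranked by p it was number 11.

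LIF, leukaemia inhibitory factor, which acts on glia and neural precursors through LIFR and gp130, stood at 19.6, 25.5 and 26.6 CPM in control input and at 105, 114 and 94.2 CPM in manganese input. The groups were well apart. It rose by 2.13 ± 0.27 log2, or 4.37-fold (edgeR adjusted p = 0.000111). Per transcript length LIF was above IL11 in control input (3.57 to 5.24 TPM against 0.461 to 0.629 TPM), and both were at a like level in manganese input (12.4 to 15.5 TPM for LIF and 12.5 to 14.9 TPM for IL11).

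IL6, the best-known gp130 cytokine of reactive glia, was present at 5.06, 4.43 and 3.56 CPM in control input and 4.18, 6.17 and 5.51 CPM in manganese input. The libraries overlapped. The log2 difference of 0.28 ± 0.59 did not pass (edgeR adjusted p = 0.854), and its 95% interval ran from -0.99 to 1.56. With total-count scaling the value was -0.16, so no direction is given. At 89 to 141 counts per input library, a change smaller than about the interval's bounds was not detectable.

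CXCL8, the main human neutrophil chemokine, stood at 0.628, 0.879 and 1.41 CPM in control input and at 25.4, 28.3 and 20.1 CPM in manganese input. It was thus close to the lower limit of measurement, at 15, 28 and 45 counts, in control cells and clearly present in manganese-treated cells. It rose by 4.65 ± 0.51 log2, or 25.0-fold (edgeR adjusted p = 3.33e-05), which was number 82 from the top among all tested genes.

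CXCL2 and CXCL3, close paralogs of CXCL1 that act on the same receptor, were low. CXCL2 stood at 0, 0.910 and 1.19 CPM in control input and 2.49, 3.11 and 2.37 CPM in manganese input, a log2 difference of 1.91 ± 0.99 (edgeR adjusted p = 0.264). CXCL3 stood at 0.502, 0.408 and 0.313 CPM and 2.26, 1.55 and 2.71 CPM, a log2 difference of 2.40 ± 1.29 (edgeR adjusted p = 0.286). In both genes the manganese libraries lay above the control libraries, and neither difference passed the test. The 3 paralogs have near-identical stretches among which reads can be divided, so each single value is uncertain. With their counts summed into 1 row, the log2 difference was 2.11 (edgeR adjusted p = 0.0385). When only the 6 input libraries were fitted, CXCL3 passed by itself (edgeR adjusted p = 0.0175).

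CXCL1, a neutrophil chemokine first known as a melanoma growth factor, is listed at 0 in each library, where 3 counts would amount to 0.0937 to 0.156 CPM; such a limit covers counting error only. GDF15 and IL33, cytokines outside the 8, are likewise listed at 0 throughout. Whether reads of CXCL1 were assigned to CXCL2 or CXCL3 was not tested.

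CCL2, the monocyte chemokine also called MCP-1, was the most abundant member per transcript length in every library. It stood at 49.7, 53.4 and 39.0 CPM in control input and at 25.99, 26.01 and 29.2 CPM in manganese input. All 3 manganese libraries lay below all 3 control libraries, the opposite of IL11, LIF and CXCL8. The log2 difference of -0.81 ± 0.31 did not pass the test in the fit over 12 libraries (edgeR adjusted p = 0.112). It passed in 10 of 26 alternatives, among them DESeq2 (adjusted p = 0.0249), a fit of the input libraries alone (edgeR adjusted p = 0.00154) and fits without control IP 1 (edgeR adjusted p = 0.0284) or without control IP 3 (edgeR adjusted p = 0.00283), and it was negative in all 26. In bulk libraries such as these, fewer cells with a message and less of the message per cell cannot be told apart.

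**Figure D2:**
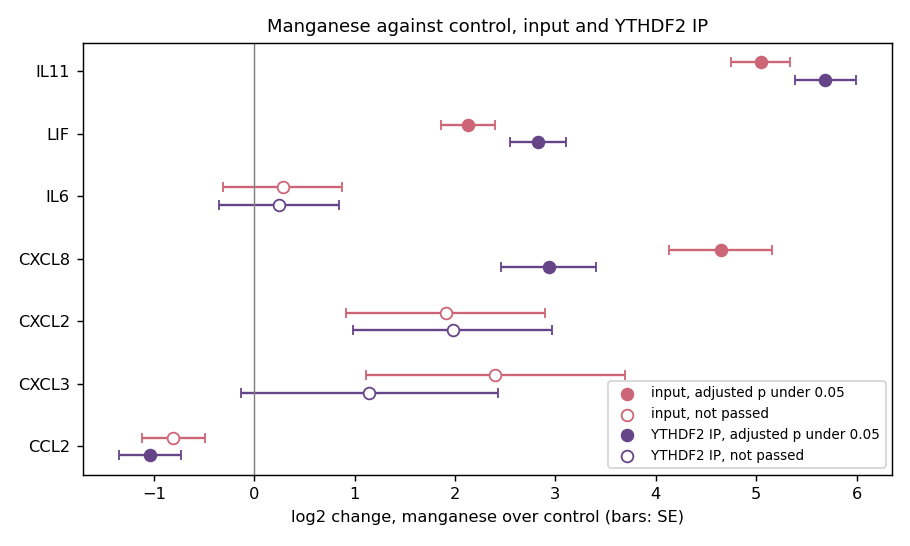
Log2 change with manganese of the 7 tested members in the input and in the YTHDF2 IP, with SE; filled points passed an adjusted p of 0.05. IL11, LIF and CXCL8 passed in both fractions, and CCL2 lay below 0 in both and passed in the IP.

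Summed over the 8 genes, control input held 68.1 to 84.9 TPM and manganese input 68.4 to 73.1 TPM, ranges that overlap, while the make-up of the sum differed. CCL2 made up 80.8% ± 2.01 (SD, n = 3) of that sum in control input and 35.9% ± 2.98 in manganese input. IL11 went from 0.747% ± 0.151 to 18.8% ± 1.78 of the sum, LIF from 5.99% ± 1.56 to 19.9% ± 1.54, and CXCL8 from 0.625% ± 0.344 to 11.7% ± 1.77. For these 4 genes the ranges of the 3 libraries did not overlap, and no test was run on shares. The share of IL6 was 10.7% ± 1.22 in control input and 10.0% ± 1.69 in manganese input, ranges that overlap. TPM here carries the weight of PCGF6, which took 66.8% to 77.9% of each library's TPM, but shares within the group do not depend on it.

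**Figure D3:**
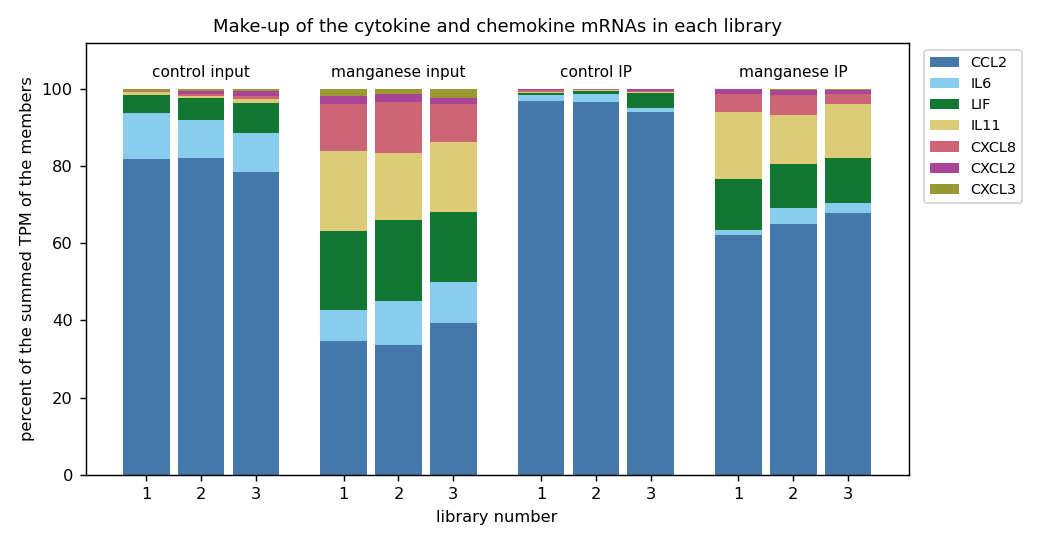
Share of each member in the summed TPM of the members, per library, as stacked percentages. CCL2 fills most of each control bar (80.8% on average in control input and 95.8% in control IP). With manganese CCL2 averaged 35.9% in the input and 65.0% in the IP. IL11, LIF and CXCL8 averaged 18.8%, 19.9% and 11.7% in manganese input and 14.7%, 12.2% and 4.05% in manganese IP.

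In the YTHDF2 IP, 4 of the 7 members changed with manganese, 3 of them higher and 1 lower, beside 42.9% of all tested genes in either direction, 20.4% higher and 22.5% lower. By total counts 2428 genes were higher and 4335 lower, against 3020 and 3330. Groups did not overlap for 4 members, beside 49.7% of all genes. IL11 stood at 2.79, 1.38 and 1.25 CPM in control IP and at 94.7, 80.6 and 107 CPM in manganese IP, a rise of 5.69 ± 0.30 log2 (edgeR adjusted p = 8.23e-08), or 5.49 log2 without control IP 3. LIF stood at 12.3, 17.4 and 30.1 CPM and at 131, 133 and 161 CPM, a rise of 2.83 ± 0.28 log2 (edgeR adjusted p = 5.35e-06), or 3.25 log2 without control IP 3. Both cytokines were thus higher in every manganese IP library, as in the input.

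CXCL8 stood at 4.48, 1.51 and 1.20 CPM in control IP and at 17.9, 23.3 and 14 CPM in manganese IP, a rise of 2.93 ± 0.47 log2 (edgeR adjusted p = 0.000232). Control IP 1 was the highest of the control libraries, and without it the rise was 3.72 log2; without control IP 3 it was 2.61 log2. CXCL2 stood at 1.69, 0.303 and 0.992 CPM and at 3.66, 4.02 and 4.11 CPM, groups that did not overlap, but the log2 difference of 1.98 ± 0.99 did not pass (edgeR adjusted p = 0.127). It passed in 5 of 26 alternatives, among them without control input 1 (1.98 log2, edgeR adjusted p = 0.0224), the library in which CXCL2 was at 0. Others were limma voom (adjusted p = 0.043), limma on log2(TPM + 1) (adjusted p = 0.0191) and the sum of the 3 paralogs (1.86 log2, edgeR adjusted p = 0.0297).

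CCL2 stood at 321, 250 and 106 CPM in control IP 1 to 3 and at 88, 108 and 134 CPM in manganese IP 1 to 3. The groups overlapped, since control IP 3 lay between the manganese libraries. CCL2 fell by 1.04 on the log2 scale (SE 0.31, edgeR adjusted p = 0.0155), a 2.05-fold lower level. The call was lost without control IP 1 (-0.71 log2, edgeR adjusted p = 0.0514) and in a fit of the 6 IP libraries alone (edgeR adjusted p = 0.0612), and without control IP 3 the change was -1.38 log2 (edgeR adjusted p = 3.15e-05). IL6 (0.25 ± 0.60 log2) and CXCL3 (1.14 ± 1.28 log2) did not pass, and without control IP 3 they were at -0.20 and 0.58 log2.

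Enrichment, the IP level over the input level, was largest for CCL2 among the 7 tested members in both treatments. In control cells 1 of 7 members was enriched and none was depleted, beside 31.3% of all tested genes called, 17.2% higher and 14.2% lower in the IP. By total counts 1679 genes were higher and 3036 lower, against 2543 and 2096. Groups did not overlap for 2 members, CCL2 and IL6, beside 43.8% of all genes. CCL2 was higher by 2.25 ± 0.32 log2, or 4.76-fold (edgeR adjusted p = 0.000151), with all 3 IP libraries above all 3 input libraries, and by 2.59 log2 without control IP 3. This enrichment was number 536 from the top among all tested genes.

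The other members in control cells did not pass. CXCL8 was higher in the IP by 1.3 ± 0.47 log2 (edgeR adjusted p = 0.0518), and the call turned on single libraries and on the method. The value was 0.46 log2 without control IP 1 (edgeR adjusted p = 0.452). It passed without control input 3 (1.66 log2, edgeR adjusted p = 0.0437), without control IP 2 (1.54 log2, edgeR adjusted p = 0.0369) and without control IP 3 (1.60 log2, edgeR adjusted p = 0.0104). With all libraries kept, it passed with no filter (1.26 log2, edgeR adjusted p = 0.022), DESeq2 (1.27 log2, adjusted p = 0.0234) and a length correction (1.44 log2, edgeR adjusted p = 0.0331). LIF was at -0.26 ± 0.26 log2, and at -0.69 log2 without control IP 3 (edgeR adjusted p = 0.00882) but 0.01 log2 without control IP 1. IL6 was at -0.80 ± 0.60 log2 (edgeR adjusted p = 0.353), with all IP libraries below all input libraries, and at -0.36 log2 without control IP 3. IL11 was at 0.14 ± 0.28 log2, a value that turned negative under total-count scaling (-0.21).

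In manganese-treated cells 2 of 7 members were enriched, CCL2 and IL11, beside 32.4% of all tested genes called, 14.8% higher and 17.6% lower in the IP. On the log2(TPM + 1) scale 1533 genes were higher and 3077 lower, against 2187 and 2608. Groups did not overlap for 5 members, beside 54% of all genes. CCL2 was higher in the IP by 2.02 ± 0.32 log2, or 4.06-fold (edgeR adjusted p = 0.000366). IL11 was higher by 0.79 ± 0.24 log2, or 1.73-fold (edgeR adjusted p = 0.024), and missed the threshold without manganese input 2 (edgeR adjusted p = 0.0662), manganese input 3 (edgeR adjusted p = 0.0645) or manganese IP 3 (edgeR adjusted p = 0.0641).

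LIF in manganese-treated cells was at 0.44 ± 0.26 log2 (edgeR adjusted p = 0.23), with all 3 IP libraries above the input libraries. It passed in 3 of 26 alternatives. These were a fit of the manganese libraries alone (0.46 log2, edgeR adjusted p = 0.0122) and fits without libraries outside this comparison. Without control IP 3 it was at 0.43 log2 (edgeR adjusted p = 0.0437), and without control input 1 and control IP 3 together also at 0.43 log2 (edgeR adjusted p = 0.0271). CXCL8 was at -0.42 ± 0.43 log2 and IL6 at -0.83 ± 0.60 log2. CXCL3 stood at 0.0412, 0.910 and 0.587 CPM in the manganese IP libraries, all below the manganese input libraries, but its log2 difference of -2.08 ± 1.28 rests on 1, 19 and 13 counts and did not pass (edgeR adjusted p = 0.247). It passed with limma voom (adjusted p = 0.0411) and with limma on log2(TPM + 1) (adjusted p = 0.00297) or log2(TPM + 0.1) (adjusted p = 0.0253).

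**Figure D4:**
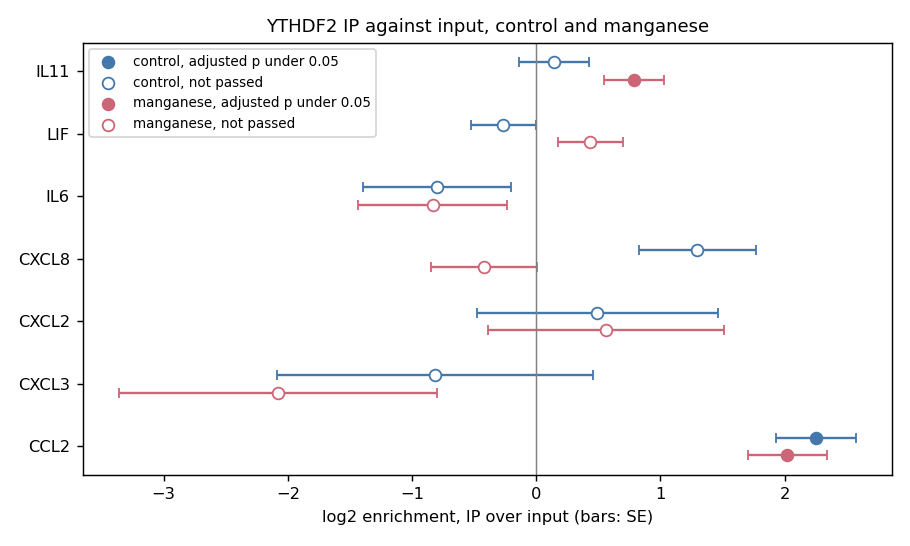
Log2 enrichment of the 7 tested members, IP over input, in control and in manganese-treated cells, with SE; filled points passed an adjusted p of 0.05. CCL2 passed in both treatments at 2.25 and 2.02, IL11 passed with manganese at 0.79, and the intervals of the low-count genes CXCL2 and CXCL3 are wide.

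The change of enrichment with manganese compares the IP level over the input level between treatments, relative to the bulk of genes. Each level is relative to its own library, so the fraction of a message bound to YTHDF2 was not measured. None of the 7 members passed (edgeR), beside 17.1% of all tested genes in either direction, 6.94% higher and 10.2% lower. With total-count scaling 1261 genes were higher and 1009 lower, against 1028 and 1503. At an unadjusted p under 0.05 there was 1, CXCL8, and DESeq2 called 1, also CXCL8 (adjusted p = 0.0452). CXCL8 enrichment was lower with manganese by a log2 difference of -1.71 ± 0.64 (edgeR adjusted p = 0.0822), with a 95% interval from -3.09 to -0.34. Without control IP 3 it was -2.03 (edgeR adjusted p = 0.0185) and without control IP 1 it was -0.85 (edgeR adjusted p = 0.283). LIF (0.70 ± 0.37) passed without control IP 3 (1.12, edgeR adjusted p = 0.00444) and IL11 (0.64 ± 0.37) without control IP 1 (1.14, edgeR adjusted p = 0.0202). For CCL2 the difference was -0.23 ± 0.43, with an interval from -1.17 to 0.71, so a change of enrichment within those bounds could not be seen. The contrasts share libraries and are not separate evidence.

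Enrichment over all genes rose with transcript length. With genes cut into 10 equal bins by effective length, the median log2 enrichment in control cells ran from -0.78 in the shortest bin to 0.68 in the longest, and in manganese-treated cells from -0.40 to 0.20. CCL2 is short, in bin 2, where the control median was -0.62. Its enrichment thus ran against the trend for genes of its length. IL6 fell in bin 1, and with a correction for length its control enrichment was 0.03 log2 in place of -0.80. CXCL8 lay in bin 5, IL11 in bin 7 and LIF in bin 9.

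Across the 12 libraries, IL11, LIF and CXCL8 varied together, with Pearson r on log2(CPM + 1) of 0.958 for IL11 and LIF, 0.953 for IL11 and CXCL8 and 0.876 for LIF and CXCL8. CXCL2 followed them at 0.897 with IL11, 0.856 with LIF and 0.886 with CXCL8. IL6 followed none of them closely (r = 0.146 with IL11), and CCL2 was at -0.269 with IL11. These values describe 12 points that form 4 groups and share depth and scaling within each library. The genes most like IL11 were SLC7A5 (r = 0.9953), GPRC5A (0.9939) and ERFE (0.9934). Those most like LIF were PLXNA3 (0.9923), RELT (0.9896) and ITGA3 (0.9881), and those most like CXCL8 were HOMER1 (0.9829), C3AR1 (0.9803) and HBEGF (0.9749). The closest to CCL2 were RBSN (0.9873), TOMM40L (0.9859) and DHTKD1 (0.9848), and the closest to IL6 was TERF1 (0.9325).

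Among the other ligands and receptors of the gp130 family, 2 of 7 tested genes rose in the input with manganese and none fell, beside 11.3% higher and 3.63% lower over all tested genes, with a median log2 change of 0.76 beside -0.04 over all tested genes. OSMR, the oncostatin M receptor that pairs with gp130, went from 65.0 ± 19.7 to 389 ± 49.8 CPM (SD, n = 3), a rise of 2.58 ± 0.22 log2 (edgeR adjusted p = 5.35e-06). IL6R, the receptor that binds IL6, rose from 3.87 ± 0.46 to 12 ± 3.95 CPM (edgeR adjusted p = 0.00114). IL11RA, which binds IL11, had at most 0.138 TPM in any library of the manganese input and was at 0 in control input.

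In the manganese IP, 1 of the 7 tested genes of this list was enriched against the input and 3 were depleted. Over all tested genes the shares were 14.8% and 17.6%. The depleted genes were IL6ST, which encodes gp130 (-2.97 ± 0.59 log2), LIFR (-0.96 ± 0.23 log2) and OSMR (-0.86 ± 0.21 log2), with edgeR adjusted p of 0.00175, 0.00587 and 0.00674. Under DESeq2 the IL6ST call was lost. IL6R was enriched (0.78 ± 0.27 log2, edgeR adjusted p = 0.0427), a call lost in 15 of 26 alternatives. In this comparison the ligand IL11 and the receptor IL6R thus lay above the input level, and IL6ST, LIFR and OSMR lay below it. The ligands LIF (0.44 log2) and IL6 (-0.83 log2) did not pass.

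Below gp130, 1 of 10 genes of the JAK-STAT3 pathway rose in the input and none fell, beside 11.3% higher and 3.63% lower over all tested genes. The gene was JAK1 (0.55 ± 0.16 log2, edgeR adjusted p = 0.0305), and that call was lost in 16 of 26 alternatives. The median log2 change of the 10 was 0.00. SOCS3, the feedback inhibitor induced by STAT3, stood at 32.6 ± 1.79 CPM in control input and 22.4 ± 3.64 CPM in manganese input and did not pass. In the IP, JAK2 and PTPN11 fell with manganese (-1.75 ± 0.36 and -0.92 ± 0.19 log2, edgeR adjusted p of 0.00158 and 0.00167), and SOCS1 rose, a call lost in 14 of 25 alternatives.

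Receptors of the chemokines were nearly absent. CXCR1 and CCR2 were at 0 in all 12 libraries, and CXCR2 averaged 0.157 CPM or less in each group. Of 3 genes tested on the receptor list, 1 rose in the input with manganese and none fell. Over all tested genes the shares were 11.3% and 3.63%. The gene was ACKR3, which rose from 0.831 ± 0.556 to 11.2 ± 1.07 CPM (3.74 ± 0.63 log2, edgeR adjusted p = 0.000933). ACKR3 is a scavenging receptor known for binding CXCL12, which is not a member. Its rise is therefore not read as a rise of a receptor for the members. Of 16 other chemokines in the table, 9 were at 0 in all libraries and 3 could be tested. In the input CXCL14, CX3CL1 and CXCL16 were at 0.65 ± 0.35, 1.70 ± 0.97 and 0.95 ± 1.05 log2 and did not pass (edgeR adjusted p of 0.28, 0.326 and 0.678). In the IP CXCL14 (1.73 ± 0.35 log2) and CX3CL1 (2.79 ± 1.02 log2, lost in 10 of 26 alternatives) rose and CXCL16 fell. CXCL16 had 0 counts in all 3 manganese IP libraries and 2.2 ± 1.94 CPM in control IP, whose lowest library was also at 0, so the groups overlapped. Its mean was at least 49.4-fold lower with manganese if that group is set at 3 counts in all, and the call was lost in 3 of 25 alternatives.

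Among other cytokines, 7 of 12 tested genes rose in the input and none fell, beside 11.3% higher and 3.63% lower over all tested genes, with a median log2 change of 1.16 beside -0.04 over all tested genes. They included TGFB1 (1.52 ± 0.21 log2), the TRAIL ligand TNFSF10 (1.87 ± 0.36 log2), BMP2 (1.21 ± 0.24 log2) and TGFB2 (1.11 ± 0.25 log2), with edgeR adjusted p of 0.000195, 0.00244, 0.00331 and 0.00821. The BMP2 call was lost with log2(TPM + 1), and the TGFB2 call with log2(TPM + 1), log2(TPM + 0.1) and without control input 3. TNF and IL1B, the cytokines best known for inducing the members, averaged at most 0.0523 and 0.191 CPM in the input groups. Both were under the filter and were not tested. IL1A, of the same list, averaged 1.24 ± 0.648 CPM in control input and 8.74 ± 3.65 CPM in manganese input (SD, n = 3).

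Transcription factors and kinases that act on the members' promoters mostly did not pass in the input, where 3 of 20 rose and 1 fell (11.3% and 3.63% over all tested genes), with a median log2 change of 0.00. ATF3, a stress-induced factor of the ATF and AP-1 family, rose from 4.83 ± 0.77 to 41.3 ± 2.39 CPM (3.09 ± 0.33 log2, edgeR adjusted p = 2.64e-05). FOSL1, an AP-1 subunit (1.61 ± 0.41 log2), and CEBPB (0.90 ± 0.24 log2) rose and CEBPD fell (-1.14 ± 0.35 log2), with edgeR adjusted p of 0.0159, 0.0183 and 0.0416. The FOSL1 and CEBPD calls were each lost in 7 of 26 alternatives and the CEBPB call in 8, among them fits that left out single input libraries. In the IP 7 of 20 rose and 6 fell, beside 20.4% higher and 22.5% lower over all tested genes, among them FOSL1 (3.59 ± 0.45 log2), ATF3 (2.32 ± 0.33 log2), CHUK (-3.06 ± 0.36 log2) and MAP2K4 (-1.55 ± 0.18 log2).

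**Figure D5:**
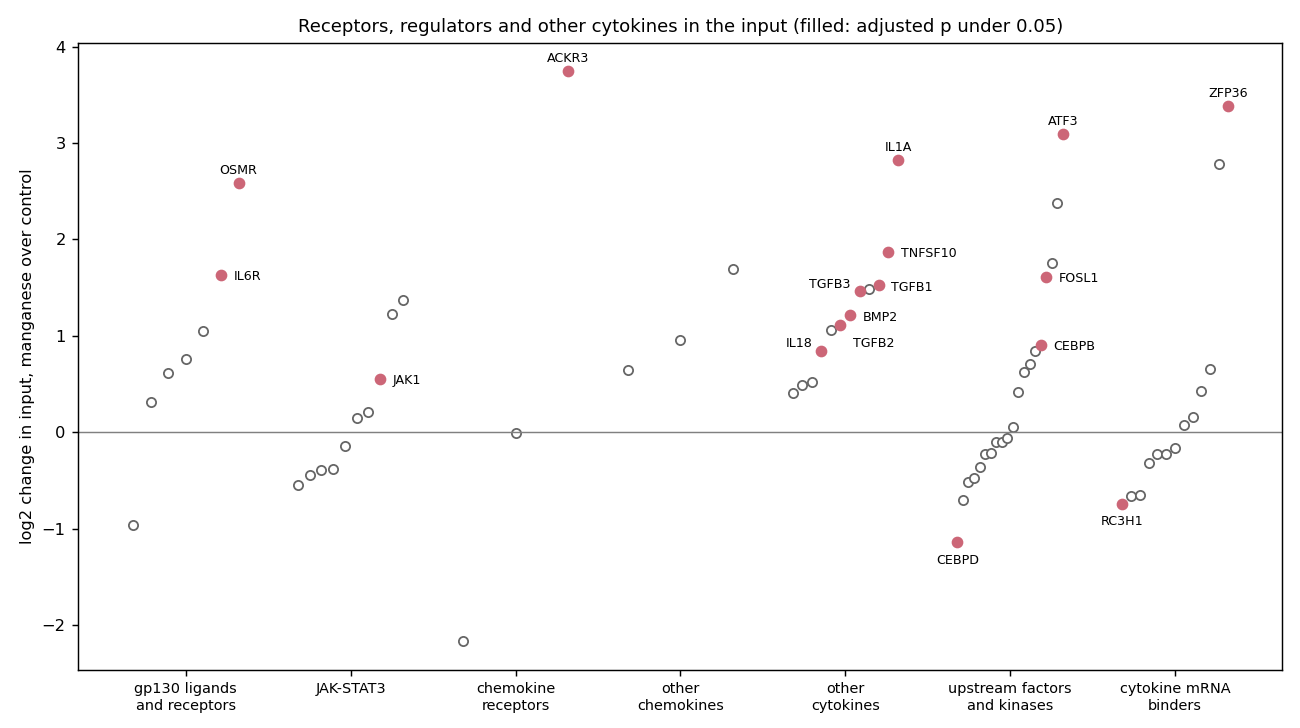
Log2 change in the input with manganese of genes around the members, by list, 1 point per tested gene in order of its change; filled, labelled points passed an adjusted p of 0.05. OSMR, ACKR3, TNFSF10, ATF3 and ZFP36 lie well above 0, and the JAK-STAT3 and upstream lists spread to both sides of 0.

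Of 13 proteins that bind AU-rich or stem-loop elements of cytokine mRNAs, 1 rose and 1 fell in the input (11.3% and 3.63% over all tested genes). ZFP36, or tristetraprolin, which speeds the decay of AU-rich cytokine mRNAs, rose from 0.885 ± 0.998 to 8.99 ± 2.34 CPM (3.38 ± 0.78 log2, edgeR adjusted p = 0.00844). RC3H1, or Roquin-1, which binds stem-loops in cytokine mRNAs, fell by 0.74 on the log2 scale (SE 0.16, edgeR adjusted p = 0.00547). In the IP 2 rose and 6 fell (20.4% and 22.5% over all tested genes), among them RC3H1 (-1.68 ± 0.16 log2), RC3H2 (-0.99 ± 0.13 log2) and ZFP36L2 (-1.48 ± 0.24 log2).

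Markers of other cell types that make these cytokines were low. Of 14 markers of microglia and macrophages, 8 were at 0 in all 12 libraries (AIF1, CX3CR1, TYROBP, C1QA, C1QB, C1QC, TREM2 and P2RY12), and PTPRC was at 0 in manganese input. The summed TPM of the 14 was 2.5 to 4.03 in control input and 12.5 to 14.6 in manganese input, and most of it was CD68, a lysosomal protein, at 2.69 and 12.9 TPM. CD68 rose by 2.78 log2 (edgeR), so this sum moved with IL11, LIF and CXCL8. Endothelial and pericyte markers summed to 2.99 to 4.59 TPM in control input and 4.14 to 5.48 in manganese input, and neuronal markers to 20.0 to 33.3 and 22.9 to 26.7. Astrocyte and glioma markers summed to 1860 to 1980 TPM in control input and 1620 to 1710 in manganese input. Of the 11 tested, 3 rose and 3 fell, beside 11.3% higher and 3.63% lower over all tested genes. GFAP (-3.02 log2), S100B (-1.71 log2) and SOX9 (-0.58 log2) fell, and NES (1.93 log2), GJA1 (1.84 log2) and CD44 (1.58 log2) rose (edgeR). The part of these markers' differences in the members' changes was not tested.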

How the data were processed

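Per the submitters' processing notes, the authors used kallisto and hg19, with versions not given in the sources used here. The deposited gene table holds estimated counts, rounded by the authors to whole numbers, per the file's values. The authors also deposited TPM per gene. A deposited summary gives fragment counts and the percent aligned per library. Genes were named by the deposited analysis table (35185), from the reference table by identifier (27) or not at all (1751).

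Counts were tested with edgeR 4.0.16 (R 4.3.3), quasi-likelihood F test, TMM factors, filterByExpr (minimum count 10, minimum total 15) and 1 mean per group over the 12 libraries. Benjamini-Hochberg adjustment ran over the 14804 genes kept and calls required an adjusted p under 0.05. The 5 contrasts were enrichment (IP over input) in each treatment, manganese against control in each fraction, and the change of enrichment. Alternatives used DESeq2 1.42.0 and limma 3.58.1. The procedure was tested on simulated data. Levels are CPM on TMM-scaled libraries, as mean ± SD of 3 libraries, and changes log2 ± SE. Depth sets the precision of low genes, and intervals and floors cover counting error only.

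The 8 members and the lists were chosen with earlier results of these data known. All members are named, with up to 4 passing genes of smallest p per list, and per tested member the 3 genes of highest r (1 for IL6; those of CXCL2 and CXCL3 are left out because of their low counts). TNF, IL1B, IL1A, IL11RA, SOCS3, CXCR2, the markers given by level and the genes at 0 were named after their values were seen. Replicate numbers were not used as pairs: same-numbered IP and input libraries correlated at -0.0037 to 0.127 in their deviations from group means. Transcript tables were not used. A gene left out of the text on purpose is not reported here.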

Additional observations from a re-analysis of the deposited data

How the results depend on the processing

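The rises of IL11, LIF and CXCL8 with manganese in both fractions, and the enrichment of CCL2 in both treatments, kept direction and threshold under all 26 alternatives. Over the members' values outside the leave-one-out fits, 422 kept direction and side of the threshold, 31 gained a call, 2 lost one and 28 changed sign. The cause of the shifts below was not tested.

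For the control enrichment, the number of members passing was 1, against 2 with no filter, DESeq2 or a length correction, 3 without control input 1 and control IP 3 together, and 1 to 3 leaving out single libraries. For the enrichment with manganese it was 2, and 1 to 3. For manganese in the input it was 3, against 5 with log2(TPM + 1) or with only the libraries compared, and 3 to 4 leaving out single libraries. In the IP it was 4, and 3 to 5. For the change of enrichment it was 0, against 1 with no filter or DESeq2, 2 without control input 1 and control IP 3 together, and 0 to 2. Genes passing in the input numbered 2215, against 3742 with total counts, 3524 with log2(TPM + 1), 4266 with only the libraries compared, and 1500 to 3213 leaving out single libraries. For the change of enrichment they numbered 2531, against 1664 with log2(TPM + 1), 1454 with log2(TPM + 0.1), 3998 without both control libraries named above, and 1455 to 3765. Leaving out single libraries gave 3504 to 5821 genes for the control enrichment, 3638 to 5964 for that with manganese and 5576 to 6605 for manganese in the IP.

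Values that changed sign were uncalled for every member. In the control enrichment, IL11 was -0.21 with total counts, -0.067 with log2(TPM + 1), -0.18 with log2(TPM + 0.1), -0.021 with only the libraries compared and -0.32 to 0.34 leaving out single libraries (negative without control IP 1). IL6 was 0.028 with the length correction and CXCL3 0.14 in the sum of paralogs. LIF was -0.69 to 0.013 leaving out single libraries (positive without control IP 1), and CXCL2 -0.12 to 1.09 (negative without control IP 1 or control input 1) and -0.076 without both libraries named above. In the enrichment with manganese, CXCL2 was -0.12 in the sum of paralogs, and STAT3, which was called, -0.37 with either TPM scale. IL6 with manganese in the input was -0.16 with total counts, -0.19 with log2(TPM + 1) and -0.21 with log2(TPM + 0.1). In the IP it was -0.056 and -0.051 with the TPM scales, -0.025 with the length correction, -0.20 to 0.63 leaving out single libraries (negative without control IP 3 or manganese IP 2) and -0.19 without both libraries, and TUBB3, which was called, was -0.029 with log2(TPM + 0.1). For the change of enrichment, IL6 was 0.056 with RLE factors, 0.18 with total counts, 0.089 without PCGF6, 0.13 with a filter of 1 CPM, 0.054 with DESeq2, 0.13 and 0.16 with the TPM scales, and -0.48 to 0.41 leaving out single libraries. There CXCL2 was -0.77 with limma voom, -0.18 with log2(TPM + 0.1), -0.19 with the length correction, -0.26 in the sum of paralogs and -0.53 to 0.71 leaving out single libraries. CXCL3 was -1.87 to 1.02 and CCL2 -0.57 to 0.16, both positive without control IP 1 only, and LIFR, which was called, was 0.037 with log2(TPM + 1).

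Deviations of same-number libraries from their group means correlated weakly, which cannot settle whether those libraries belong together. In control cells, same-number input and IP libraries were at r of 0.127, 0.000859 and 0.0734, and unlike numbers at -0.127 to 0.0427. With the replicate block the genes passing were 4293, 4465, 2037, 5879 and 2155 in the order of the contrasts, and the members passing were as many as without it. IL6 and CXCL2 in the change of enrichment were 0.013 and -0.064 with the block.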
